A study of Mus musculus with 10 samples.

Results

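The genes described here are the mouse oligoadenylate synthetases and their relatives Oas1a, Oas1b, Oas1g, Oas2, Oas3, Oasl1 and Oasl2, followed in leukaemia cells recovered from transplanted mice. They were chosen by name: every probe set whose platform gene symbol is one of these 7 was taken, which gave 6 probe sets for 6 genes, out of 18193 genes on the array. Oas1g had no probe set listed under its own symbol. It was not analysed here.

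All 10 samples came from the same acute lymphoblastic leukaemia of C57BL/6 background, which the labels call NSTY ALL, with human p210 bcr/abl and a deletion in the Ink4a/Arf locus. Each animal was a C57BL/6 recipient prepared with total body irradiation and 5-fluorouracil. In the syngeneic group (5 animals) the leukaemia was mixed with C57BL/6 marrow and spleen cells, and in the allogeneic group (5 animals) with C3.SW marrow and spleen cells. The leukaemia was recovered by flow cytometry after 2 to 3 weeks and moved on, and RNA was taken after 3 such serial transplants from cells sorted on green fluorescent protein. The labels give no age for the animals and do not say whether animals of a group received leukaemia from the same earlier recipient. The p-values therefore rest on the variation among 10 animals that may share a source. The question put by the series is how leukaemia in an allogeneic immune environment differs from leukaemia in a syngeneic one.

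Oligoadenylate synthetases are induced by interferon and bind double-stranded RNA. The active enzymes then join ATP into short adenylate chains, a messenger that leads to the cutting of RNA in the cell. The OAS-like proteins carry ubiquitin-like domains at their end, and some members have lost the synthetase activity and act by other routes.

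Values are the log2 of the deposited array intensity after quantile normalization. A probe set was counted as above background on an array when it exceeded a limit set from 27 control probe sets for bacterial transcripts, which lay between 4.50 and 5.32 on the log2 scale. Between 56.9% and 67.4% of 45037 probe sets exceeded it on each array. All 11 measured B-lymphoid markers were above background on at least 5 arrays. Of their 21 probe sets 0 passed limma after adjustment, with 0 higher and 2 lower at an unadjusted p under 0.05. Pax5 had means of 5.58 in syngeneic and 4.37 in allogeneic animals (limma, adjusted p = 0.279). It was above background in 4 syngeneic and 2 allogeneic animals. The summed intensity of the 11 markers ran from 79206 to 81142 in the syngeneic group and from 80588 to 83763 in the allogeneic group. Cd24a, the brightest of them, had means of 13.84 and 13.85. The ratio of the 3' to the 5' control probe set of Gapdh, which reflects RNA quality, overlapped between the groups (syngeneic 1.46 to 1.56, allogeneic 1.38 to 1.59).

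Oas3, Oasl2 and Oasl1 rose in allogeneic leukaemia, while Oas1a, Oas2 and Oas1b did not pass the test. The fold differences of the first 3 were 10.2 for Oas3, 7.52 for Oasl2 and 3.03 for Oasl1, each from 5 animals per group. Syngeneic values below background enter these folds, which were 6.56, 5.11 and 2.98 with such values raised to the background limit. Thus 3 of 6 member probe sets were called higher, where 0.271% of all 45037 probe sets were (122 higher; limma, adjusted p under 0.05 over all probe sets), and 0 members were called lower, where 0.14% were. At an unadjusted p under 0.05, 4 members were higher and 0 lower, against 7.9% and 9.02% of all probe sets, 16.9% in either direction. All 6 members had a positive difference, as did 48.5% of all probe sets. The median difference of the 6 was 1.29 on the log2 scale, against -0.014 over all probe sets. The members were chosen with earlier results of these data known, so these contrasts are not independent of the data.

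**Figure D1:**
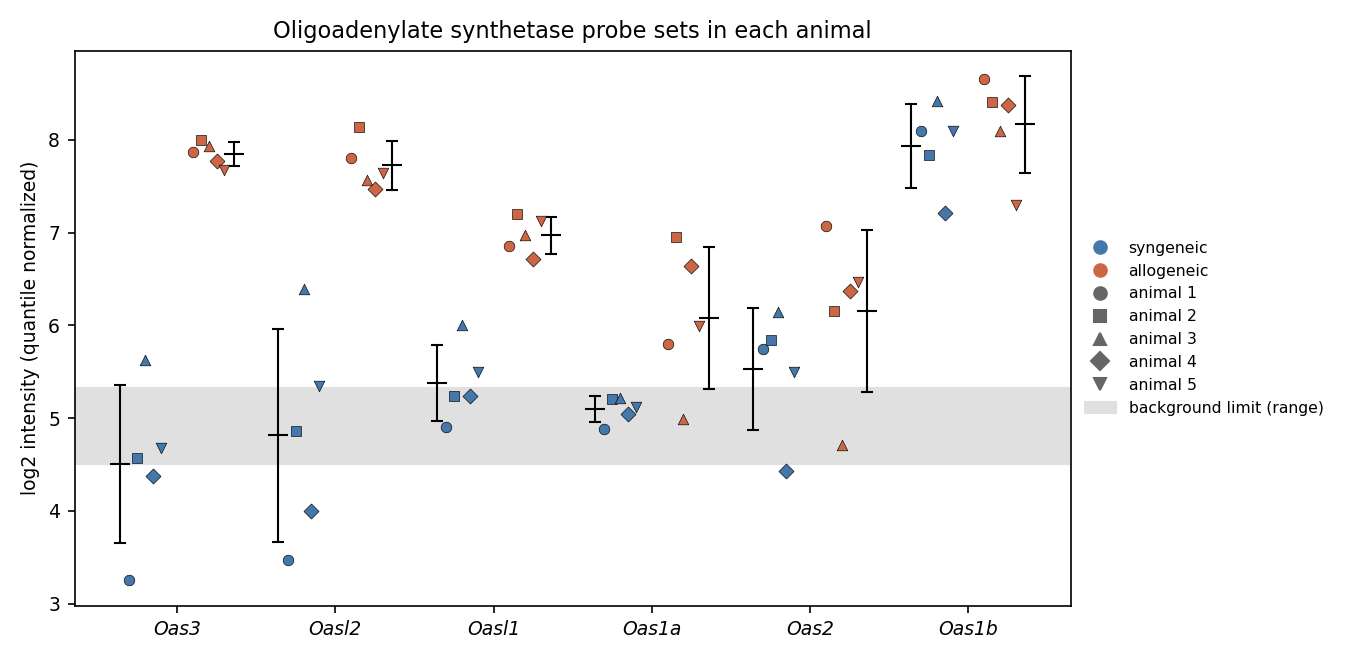
Log2 intensity after quantile normalization for each of the 6 member probe sets in each animal. Blue is syngeneic, orange is allogeneic, marker shape gives the animal number and black bars give mean ± SD (n = 5). For Oas3, Oasl2 and Oasl1 the allogeneic animals lie wholly above the syngeneic ones, while those of Oas1a, Oas2 and Oas1b overlap; the grey band is the range of the background limits over arrays.

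Oas3 (probe set 1425374_at) encodes the largest synthetase, built from repeated synthetase units, and it binds long double-stranded RNA. Its deposited intensities were 8.83, 21.2, 46.8, 19.2 and 23.8 in syngeneic animals 1 to 5. In allogeneic animals 1 to 5 they were 250, 232, 259, 214 and 189. The lowest allogeneic value was therefore several times the highest syngeneic one, and the allogeneic animals were close to each other. On the log2 scale the syngeneic values were 3.25, 4.57, 5.63, 4.38 and 4.68, and the allogeneic values 7.87, 8.0, 7.93, 7.77 and 7.67. The group means were 4.50 ± 0.85 and 7.85 ± 0.13 (SD, n = 5 each), a difference of 3.35 (SE 0.36, 95% interval 2.55 to 4.14, adjusted p = 0.00374). Only syngeneic animal 3 exceeded the background limit in its group, against 5 of 5 allogeneic animals. With values below the limit raised to it, the difference was 2.71 (adjusted p = 1.81e-05).

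Oasl2 (probe set 1453196_a_at) encodes an OAS-like protein that keeps synthetase activity. In syngeneic animals 1 to 5 its log2 values were 3.47, 4.86, 6.39, 4.00 and 5.35. The allogeneic animals stood at 7.80, 8.14, 7.57, 7.47 and 7.64. Syngeneic animals were spread over 2.91 log2 units and allogeneic ones over 0.67, and the groups did not overlap. The means were 4.81 ± 1.14 and 7.72 ± 0.26, a difference of 2.91 (SE 0.48, 95% interval 1.85 to 3.98, adjusted p = 0.0380). It was above background in 3 of 5 syngeneic and 5 of 5 allogeneic animals. The call was lost when any 1 animal other than syngeneic animal 3 or allogeneic animal 1 was left out, 8 of 10 cases in all, with the adjusted p between 0.0102 and 0.106 and the difference between 2.56 and 3.29 over the 10.

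Oasl1 (probe set 1424339_at) encodes a relative without synthetase activity, which is known to restrain translation of the interferon regulator Irf7. Its log2 values were 4.90, 5.24, 6.00, 5.24 and 5.5 in syngeneic animals 1 to 5. They were 6.85, 7.20, 6.97, 6.71 and 7.13 in allogeneic animals 1 to 5. Every allogeneic animal was higher than every syngeneic one, by a gap of 0.71 between the nearest values. The means of 5.37 ± 0.41 and 6.97 ± 0.20 differed by 1.60 (SE 0.21, 95% interval 1.13 to 2.06, adjusted p = 0.0120). Like Oasl2, it exceeded background in 3 of 5 syngeneic and 5 of 5 allogeneic animals. In the normalized values, groups without overlap, higher in the allogeneic animals, were found for these 3 members and for 2.37% of all probe sets.

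Oas1a (probe set 1424775_at) encodes a small active synthetase. Its syngeneic values of 4.88, 5.21, 5.22, 5.04 and 5.12 on the log2 scale were tightly grouped close to the background limit. They exceeded it in 3 of 5 syngeneic animals, against 5 of 5 allogeneic animals. The allogeneic values of 5.80, 6.95, 4.99, 6.64 and 5.99 were spread over 1.96 units. Animals 1, 2, 4 and 5 of the allogeneic group were above all syngeneic animals, and allogeneic animal 3 lay within the syngeneic range. That overlap appeared only after quantile normalization. The deposited intensity of allogeneic animal 3 was 38.7, above the syngeneic ones of 28.5 to 35.1. The difference was 0.98 (SE 0.33, 95% interval 0.25 to 1.71, adjusted p = 0.184), which did not pass. Without quantile normalization it was 1.09 and did not pass either (limma, adjusted p = 0.106). Without allogeneic animal 3 it was 1.26 (adjusted p = 0.0773). It passed with arrays weighted by quality (1.30, adjusted p = 0.0355) and without allogeneic animals 1, 3 and 4 together (1.44, adjusted p = 0.0406), the arrays with the higher lower quartile of intensity. That last setting kept only allogeneic animals 2 and 5. It left out animal 3, the lowest allogeneic value here, and kept animal 2, the highest.

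Oas2 (probe set 1425065_at), a medium-sized active synthetase whose gene lies beside that of Oas3, had log2 values of 5.74, 5.84, 6.14, 4.43 and 5.5 in the syngeneic animals. Its allogeneic values were 7.07, 6.15, 4.71, 6.37 and 6.47. The probe set was above background in 4 of 5 syngeneic animals, all but animal 4, and in 5 of 5 allogeneic animals. Animal 3 was again the lowest of the allogeneic group, and the other 4 were above every syngeneic animal. The difference of 0.62 (SE 0.45, 95% interval -0.38 to 1.62, adjusted p = 0.512) was within the spread between animals. It was 0.343 (adjusted p = 0.732) without syngeneic animal 4 and 0.992 (adjusted p = 0.216) without allogeneic animal 3. The interval reaches a 3.08-fold rise, so a rise of the size seen for Oasl1 was within it.

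Oas1b (probe set 1425119_at) is the gene at which full-length alleles give mice resistance to flaviviruses, and the RefSeq annotation of C57BL/6J lists it as a transcribed pseudogene. Its probe set exceeded background in all 10 animals. The values were 8.09, 7.84, 8.42, 7.21 and 8.10 in the syngeneic group and 8.65, 8.41, 8.10, 8.37 and 7.30 in the allogeneic group, on the log2 scale. Syngeneic animal 4 and allogeneic animal 5 were the low ones, and the rest overlapped. The difference was 0.23 (SE 0.29, 95% interval -0.42 to 0.88, adjusted p = 0.728), and it turned to -0.078 without allogeneic animals 1, 3 and 4. The upper end of the interval is a 1.85-fold rise. The Oas1 genes are close copies of each other, and how far the probe sets of Oas1a and Oas1b hybridise with transcripts of neighbouring copies was not tested.

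The promoters of the 3 genes that rose, and of Oas1a for contrast, are shown as the 250 bases before the RefSeq start, read 5′ to 3′ on the gene's strand. Capitals mark matches to the core of the interferon-stimulated response element, GAAA followed after any 2 bases by another GAAA, or to the gamma-activated site, TTC followed after any 3 bases by GAA. Both strands were searched. The positions are on GRCm38.p6: Oas3 at chr5:120777660-120777909 on the minus strand, Oasl2 at chr5:114896684-114896933 on the plus strand, Oasl1 at chr5:114922990-114923239 on the plus strand and Oas1a at chr5:120907526-120907775 on the minus strand.
Oas3: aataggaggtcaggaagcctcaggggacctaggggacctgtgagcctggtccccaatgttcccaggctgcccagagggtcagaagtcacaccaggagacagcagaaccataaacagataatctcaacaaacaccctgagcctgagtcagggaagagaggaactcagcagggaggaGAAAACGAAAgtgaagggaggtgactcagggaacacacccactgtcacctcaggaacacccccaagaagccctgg
Oasl2: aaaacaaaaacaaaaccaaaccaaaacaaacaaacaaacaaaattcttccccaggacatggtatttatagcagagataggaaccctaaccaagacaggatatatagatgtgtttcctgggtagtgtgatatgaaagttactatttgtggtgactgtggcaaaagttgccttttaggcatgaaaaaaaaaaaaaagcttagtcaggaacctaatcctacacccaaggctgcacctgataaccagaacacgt
Oasl1: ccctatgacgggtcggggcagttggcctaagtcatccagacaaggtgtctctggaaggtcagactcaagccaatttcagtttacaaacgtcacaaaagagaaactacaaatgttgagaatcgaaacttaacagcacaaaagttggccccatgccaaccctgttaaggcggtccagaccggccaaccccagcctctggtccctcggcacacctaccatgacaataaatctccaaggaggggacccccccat
Oas1a: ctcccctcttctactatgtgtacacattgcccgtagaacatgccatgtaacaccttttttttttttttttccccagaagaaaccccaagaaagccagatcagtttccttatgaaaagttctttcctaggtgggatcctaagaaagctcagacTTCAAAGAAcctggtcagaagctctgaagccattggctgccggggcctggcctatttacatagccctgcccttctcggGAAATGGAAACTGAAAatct

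The promoter of Oas3 held 1 match to the response element core, GAAAACGAAA, from 75 to 66 bases before the start. In Oas1a, which did not pass the test, 2 overlapping matches lay from 20 to 5 bases before the start, and 1 match to the gamma-activated site lay from 98 to 90 bases before it. Neither set of letters occurred in the windows of Oasl2 and Oasl1, both of which rose. Among all 32851 promoter windows of this length, 2.98% held the response element core and 7.02% the gamma-activated site. RefSeq promoters were found for 5 of the 7 genes, with Oas1g as the fifth, and its window was identical to that of Oas1a at 82.8% of aligned positions.

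The differences between groups were not equal across the member probe sets. Each member was measured by 1 probe set, so this compares signals, and how each probe set responds to its transcript was not tested. For each of the 15 pairs of measured members, the difference between their log2 values was taken within each array and compared between groups with an exact permutation test, 2-sided, adjusted over the 15 pairs. Unequal differences were found for 9 pairs. Oas3 exceeded Oas1b by 3.12 log2 units in this measure, Oas2 by 2.73, Oas1a by 2.37 and Oasl1 by 1.75, each with an adjusted exact p of 0.0149. The raw p of 0.00794 behind these was the smallest that 252 splits can give. Oasl2 likewise exceeded Oas1b by 2.68, Oas2 by 2.29 and Oasl1 by 1.31 (adjusted exact p = 0.0149 for each), and Oas1a by 1.93 (adjusted exact p = 0.0265). This last pair no longer passed without syngeneic animal 1 or without allogeneic animal 1 (adjusted exact p = 0.0529 in both cases). Oasl1 exceeded Oas1b by 1.36 (adjusted exact p = 0.0149). Oas2 over Oas1b passed only without allogeneic animal 3 (0.743, adjusted exact p = 0.0476). Oas3 had the larger deviation from the syngeneic mean than Oasl2 in 5 of 5 allogeneic animals, but these deviations all share the same syngeneic means. Within arrays, Oas3 minus Oasl2 lay beyond all syngeneic arrays in 0 of 5 allogeneic arrays. The difference of 0.44 between the rises of Oas3 and Oasl2 did not pass (adjusted exact p = 0.119). It passed without syngeneic animal 4 (0.609, adjusted exact p = 0.0132). Because some syngeneic values of Oas3 and Oasl2 lay below background, their rises on this scale depend on how low values are treated. With low values raised to the limit the 9 pairs passing became 10, through Oasl1 over Oas2 (1.13, adjusted exact p = 0.0476). The 9 differences themselves all became smaller in size. Oas3 minus Oasl1 was then 1.14, Oas1b minus Oas3 was -2.48 and Oasl1 minus Oasl2 was -0.779.

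**Figure D2:**
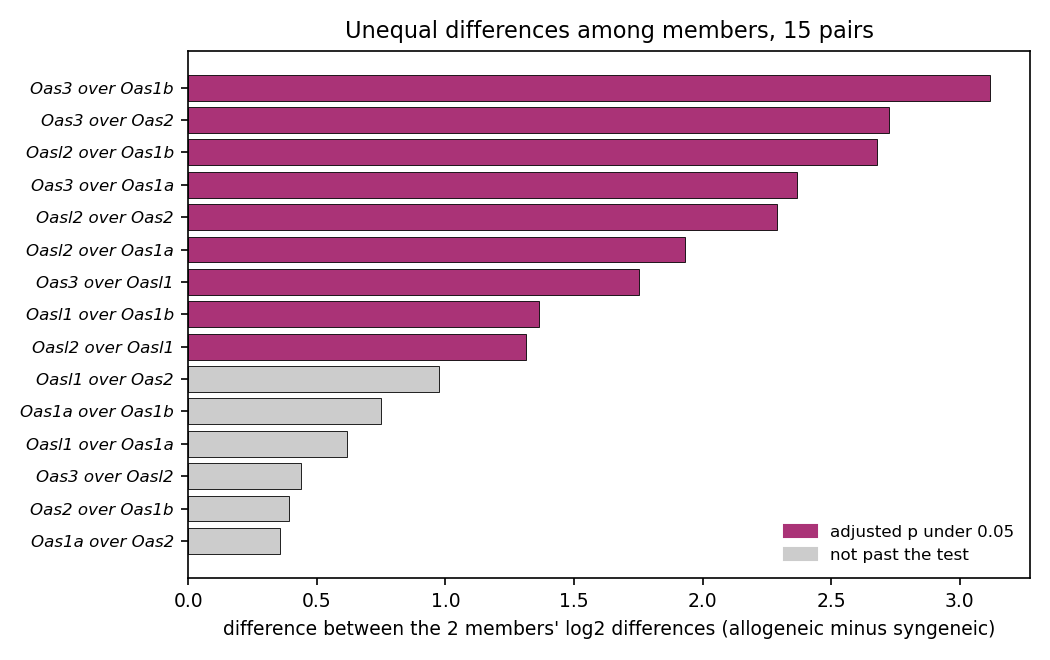
Each bar is 1 of the 15 pairs of members and shows by how much the log2 difference between groups of the member named first exceeded that of the other, with purple for an adjusted exact permutation p under 0.05 and grey otherwise. Oas3 over Oas1b is the longest bar, at 3.12, and Oas3 over Oasl2 is among the 6 pairs that did not pass. Values below background enter these lengths.

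Syngeneic animals also differed from each other in a shared way. Syngeneic animal 3 was the highest of its group for 6 of 6 members, whereas it was the highest for 17.9% of the 27934 probe sets above background on at least 5 arrays. For Oas1a its lead was slight, at 5.22 against 5.21 in animal 2, and the 6 members are not independent counts. Syngeneic animal 1 was the lowest for 4 members and animal 4 for the other 2. No syngeneic animal reached the allogeneic range of Oas3, Oasl2 or Oasl1. Without syngeneic animal 3 the difference was 3.62 for Oas3 (adjusted p = 0.00141), 3.29 for Oasl2 (adjusted p = 0.0102) and 1.75 for Oasl1 (adjusted p = 0.00520). In the allogeneic group, animal 2 was the highest for 4 members and animal 1 for 2, and the low values were shared among animals 3, 4 and 5, each lowest for 2.

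The genes lie at a pair of places on mouse chromosome 5, and the order of genes was taken from the RefSeq annotation. At the first, Oasl2 and Oasl1 are close neighbours and both rose, while the nearest measured genes outside them, 4930519G04Rik and 2210016L21Rik (0.23, adjusted p = 0.603), did not pass. The probe set of 4930519G04Rik was above background on no array, so a change in it could not be measured. At the second, Oas3 stands between Oas2 and Oas1e. There Oas3 was the only gene that passed, among 8 Oas genes with a probe set of their own. The nearest measured genes outside this cluster were Dtx1 (0.48, adjusted p = 0.447) and Rph3a. Dtx1 encodes a regulator of Notch signalling and was above background on 4 arrays. Rph3a encodes an effector of vesicle release and was above background on no array. Of the 12 measured flanking genes, 3 on each side of each place, limma called 0, with 2 at an unadjusted p under 0.05; the 12 include both that were never above background.

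**Figure D3:**
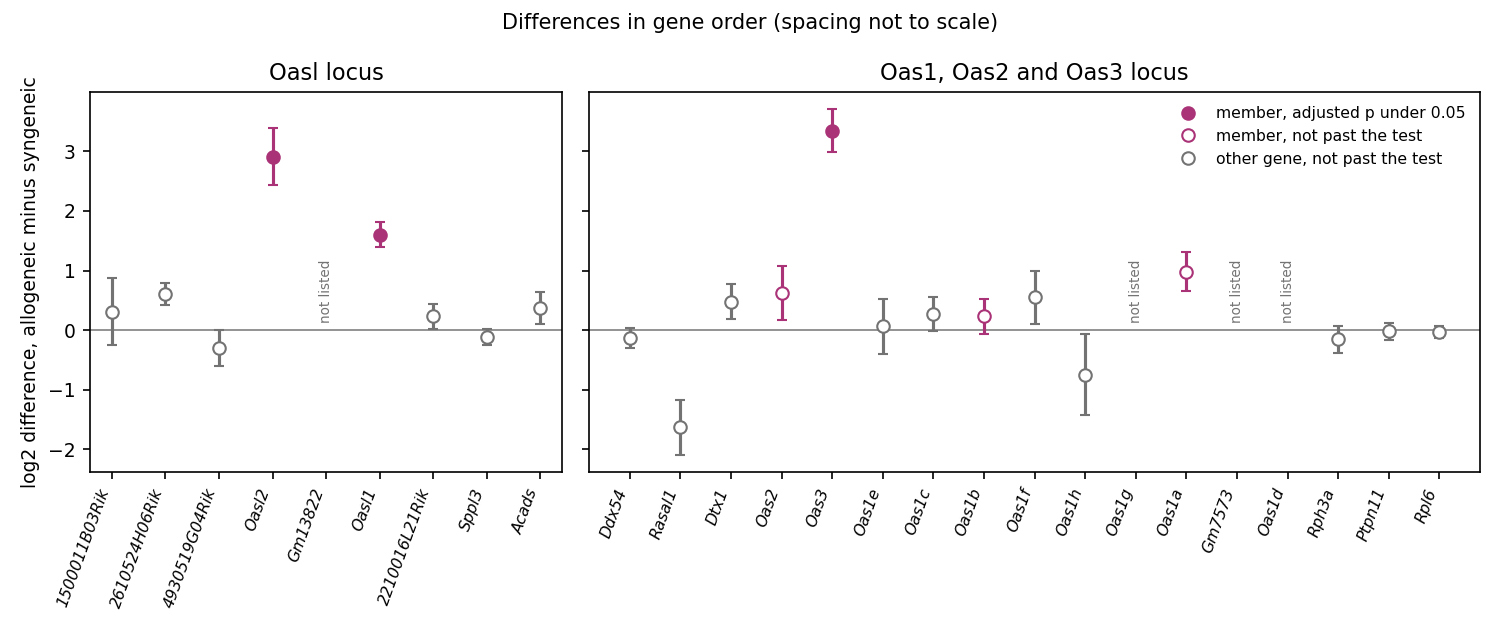
Log2 difference between allogeneic and syngeneic groups (points, with SE bars) for the genes of the Oasl place and of the Oas1, Oas2 and Oas3 cluster, in the order of the annotation but not to scale. Filled purple points are members that passed the test, and every flanking gene is open; genes marked as not listed have no probe set of their own symbol.

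The further Oas1 copies gave 0 calls by limma among their 5 probe sets, with 1 at an unadjusted p under 0.05. Oas1c was above background in all 10 animals, at mean log2 values of 7.08 and 7.35 (difference 0.27, adjusted p = 0.666). Oas1e had means of 5.27 and 5.34 (adjusted p = 0.960). The probe sets of Oas1f, Oas1h and the one shared by Oas1e and Oas1d were above background on no array. Cgas, whose product is a DNA sensor built on the same enzyme fold, differed by 0.95 (SE 0.35, adjusted p = 0.219) at its brighter probe set and by 0.30 at the other.

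Genes tied to the adenylate messenger were examined through Abce1, which encodes an ATP-binding protein of ribosome recycling, and through Pde12 and Akap7, whose products can degrade the messenger. Of their 8 probe sets limma called 0, with 1 higher and 4 lower at an unadjusted p under 0.05, and the median difference was -0.30. The brightest probe set of Abce1 had means of 12.86 ± 0.07 and 12.55 ± 0.18, a difference of -0.30 (SE 0.13, adjusted p = 0.264) in which the groups did not overlap. Pde12 differed by 0.034 (adjusted p = 0.928, with the sign turning under 4 of 21 other settings) at its brightest probe set and by -0.90 (adjusted p = 0.159) and -0.49 (adjusted p = 0.320) at the others. Akap7 differed by 0.50 (adjusted p = 0.274) at its brighter probe set and by -0.44 (adjusted p = 0.175) at the other, in opposite directions.

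Among 11 genes listed under double-stranded RNA sensing, 2 rose and 9 did not pass, where 0.445% of all genes had a probe set called higher. Zbp1 encodes a protein that binds nucleic acid in the Z conformation, and both of its probe sets rose, the brighter by 3.06 (SE 0.28, adjusted p = 0.00141) and the other by 2.79 (adjusted p = 0.00374). Ifih1, which encodes the RNA helicase sensor MDA5, rose by 1.45 (SE 0.17, adjusted p = 0.00684). The median over the 26 probe sets of this list was 0.18. At an unadjusted limma p under 0.05, 7 of them were higher and 2 lower, against 7.9% and 9.02% of all probe sets. Eif2ak2, which encodes the RNA-dependent kinase PKR, had differences of -0.13, 0.075 and -0.23 at its 3 probe sets, none of which passed.

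Interferon itself and its receptors gave 0 calls by limma, with 1 probe set of each list at an unadjusted p under 0.05. Of 8 probe sets for interferon ligands 3 exceeded background on any array, and the group means ran from 1.29 to 6.23 on the log2 scale. The highest was Ifna1 (5.84 and 6.23, adjusted p = 0.180). The 18 probe sets of 9 receptor and kinase genes had a median difference of 0.056. Since the cells were sorted, ligand made by other cells of the host was not measured.

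Of 8 measured transcription factors of the interferon pathway 1 rose. Of their 14 probe sets, 4 were higher and 3 lower at an unadjusted limma p under 0.05, against 7.9% and 9.02% of all probe sets. Irf1, which binds response elements directly, rose by 1.71 (SE 0.15, adjusted p = 0.00141). Irf7, whose translation Oasl1 restrains, had means of 5.57 ± 0.68 and 6.96 ± 0.38, a difference of 1.39 (SE 0.32, adjusted p = 0.101), and the groups did not overlap. Irf9 and Stat2, which bind response elements as a complex, did not pass either. Irf9 differed by 0.99 (adjusted p = 0.101) without overlap of the groups, and Stat2 by 0.21 (adjusted p = 0.614). Irf9 passed in 2 of 21 other settings, with a filter on low probe sets (adjusted p = 0.0499) and with a trended robust variance (0.0476). Irf7 passed in 1, with low values raised to the limit (0.0467). The 6 feedback inhibitors had 15 probe sets, of which 2 were higher and 5 lower at an unadjusted limma p under 0.05. Among them, Socs3, which restrains cytokine receptor signalling, had 1 of 3 probe sets that fell, from a log2 mean of 8.78 to 7.31 (difference -1.48, adjusted p = 0.0262). That call was lost in 7 of the 10 fits that left out 1 animal, those without syngeneic animal 1, 2, 3 or 5 or without allogeneic animal 3, 4 or 5 (adjusted p up to 0.0797). The other Socs3 probe sets differed by -1.40 and -1.27 (adjusted p = 0.0687 and 0.0993). Usp18, an inhibitor of type I interferon signalling, differed by 1.92 (SE 0.58, adjusted p = 0.159). In all, 4 of 50 measured genes around the members were called, against 0.583% of all 18193 genes. These lists too were chosen with earlier results of these data known.

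**Figure D4:**
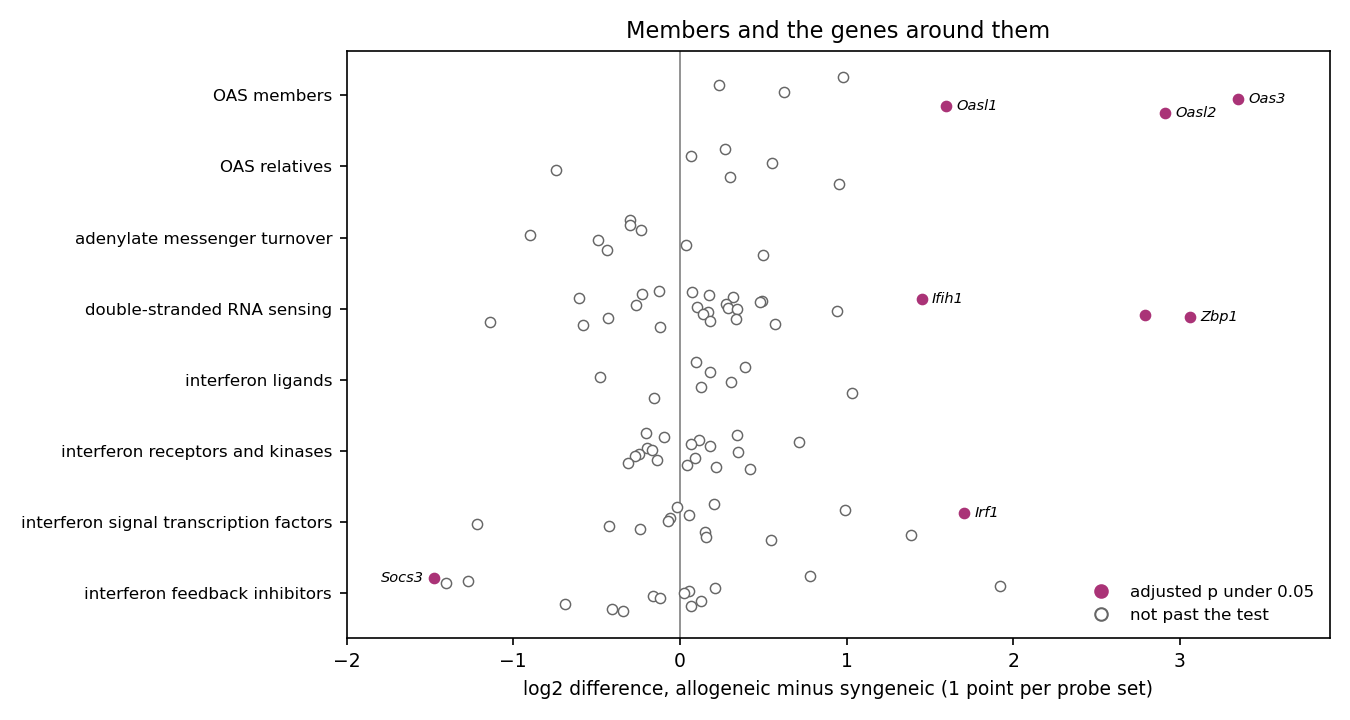
Log2 difference of each probe set between allogeneic and syngeneic groups, for the members and for 7 lists of genes around them, with filled points for adjusted p under 0.05. Oas3, Oasl2 and both probe sets of Zbp1 lie near 3, Irf1, Oasl1 and Ifih1 lie between 1.45 and 1.71, and 1 probe set of Socs3 is the only one called lower.

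Genes with profiles most like those of the risen members were ranked by the root mean square difference over the 10 arrays, after each profile was centred on its own syngeneic mean. Among 22837 probe sets that were above background on at least 5 arrays, the nearest to Oas3 were those of Rtp4 (0.387 log2 units) and Zbp1 (0.474). The same genes were the nearest to Oasl2, with 0.458 for Rtp4 and 0.595 for Zbp1. Nearest to Oasl1 were Ica1 (0.187) and Irgm1 (0.239), of which Ica1 encodes an autoantigen of secretory granules and Irgm1 an interferon-inducible GTPase. Rtp4, which encodes a receptor transporter protein, had syngeneic values of 6.81, 7.36, 8.78, 6.84 and 7.05 and allogeneic values of 10.28 to 10.66. The choice by likeness to the members favours genes in which syngeneic animal 3 is high, as in Rtp4. Only 14 genes outside the members were looked at for this, most of them tied to interferon. Syngeneic animal 3 was the highest of its group in 9: Rtp4, Zbp1, Ica1, Irgm1, Irf7, Irf9, Usp18, Stat2 and Tlr3. It was not the highest in Ifih1, Irf1, Cgas, Socs3 or Bst2. The other genes named here were not looked at for this. Without quantile normalization the nearest genes were the same for Oas3 and Oasl2, and Gbp2 took second place for Oasl1 (0.253).

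Markers of other cells were measured because a sort can hold them, and in sorted bulk RNA more cells of a type cannot be told apart from more RNA per cell. Of 15 markers for macrophages and monocytes limma called 0, with 4 of 26 probe sets at an unadjusted p under 0.05, and their summed intensity was 9044 to 11405 in syngeneic and 12535 to 14249 in allogeneic animals, without overlap. Without Mpeg1 (11.95 and 12.63, adjusted p = 0.186), left out after its values were seen, the sums overlapped, at 4934 to 6417 and 5225 to 8284. The brightest marker over all arrays was Fcgr3 (12.25 and 12.46, adjusted p = 0.504). Cx3cr1, Itgam and Cd14 were above background on no array. Stroma and endothelium markers summed to 596 to 800 and 812 to 1064, without overlap, with 0 of 11 called. Of their 24 probe sets, 6 were higher and 1 lower at an unadjusted limma p under 0.05, against 7.9% and 9.02% of all probe sets. Pecam1 was the brightest (8.75 and 9.16), and Cxcl12 and Vwf were never above background. Dendritic cell markers summed to 1343 to 1979 and 2596 to 3989, with Itgax and Cd209a never above background. Bst2, itself interferon-inducible, was the 1 of their 9 that rose (1.37, adjusted p = 0.0171), and without it the sums overlapped, at 636 to 1125 and 792 to 1398. Sums for T cells (5261 to 6546 and 5589 to 6956, 0 of 9 called), NK cells (1019 to 1510 and 1250 to 2081, 0 of 8), granulocytes (1907 to 4757 and 1289 to 7629, 0 of 8) and erythroid cells (116 to 138 and 109 to 162, 0 of 4) overlapped between groups. Their brightest genes were Cd2 (12.46 and 12.61), Gzma (8.86 and 9.92), S100a8 (10.3 and 10.62) and Klf1 (5.92 and 6.20), and 1, 2, 1 and 0 of their probe sets had an unadjusted p under 0.05. Cd2 made up most of the T cell sum, since no other marker of that list had a group mean above 5.73. The overlap of the T cell sums therefore describes Cd2 more than the other T cell markers. Cd8b1 of the T cell list, Ncr1, Klrk1, Gzmb and Eomes of the NK cell list and Hba-a1 of the erythroid list were above background on no array. The part of these cells in the rise of Oas3, Oasl2 and Oasl1 was not tested.

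**Figure D5:**
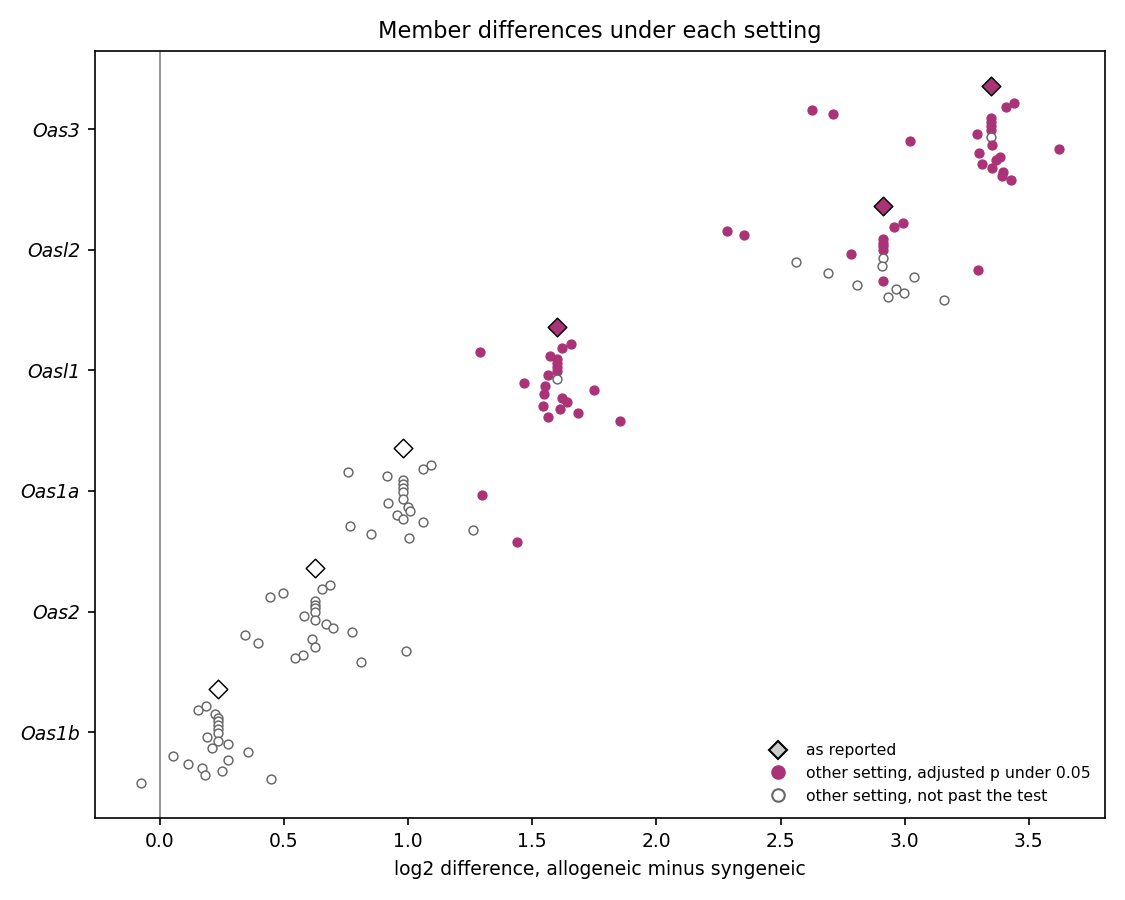
Log2 difference of each member between allogeneic and syngeneic groups as reported (diamonds) and under each of 21 other settings (circles), with fill for adjusted p under 0.05. Oas3 stays between 2.62 and 3.62 and Oasl1 between 1.29 and 1.86, Oasl2 has filled and open circles, and Oas1b is the only member with a value below 0.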

How the data were processed

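RNA of each animal was measured on 1 Affymetrix array, from biotinylated cDNA made with NuGEN kits per the labels' protocols. The values in the deposited table are linear intensities for 45101 probe sets. The method by which the authors summarised and scaled these intensities was not given in the sources used here. Median intensity per array was 53.3 to 72.0. The lower quartile was 18.7 to 19.5 on allogeneic arrays 1, 3 and 4 and 13.8 to 14.4 on the others, so arrays were quantile normalized after log2. The platform annotation gave 1 symbol to 34945 probe sets, several to 932 and none to 9160, beside 64 controls, and 34754 matched GRCm38.p6 genes by identifier.

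Groups were compared with limma 3.58.1 in R 4.3.3 (lmFit, eBayes) over 45037 probe sets, with Benjamini-Hochberg adjustment over all of them and no filter on low values. The background limit was the 95th percentile of 27 bacterial controls per array. The number of arrays limits the precision. Member pairs were compared with exact permutation tests (15 pairs, since Oas1g was not measured). The alternatives were other scalings, offsets, filters, probe set summaries and variance models, a block on animal number, and leaving out animals.

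By rule the text names all member probe sets; called genes of the lists; Abce1, Pde12, Cgas, Stat2, Irf9, Irf7 and Irf1; the 2 most similar genes per risen member; the nearest measured neighbours; and the brightest marker per list. Usp18, Eif2ak2, Akap7, Ifna1, Gbp2, Mpeg1, Tlr3, Pax5, the Oas1 copies and markers below background were named after their values were seen. Members and lists were chosen with earlier results of these data known. Some items the rule names are not reported here. The fit was tested on simulated data.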

Additional observations from a re-analysis of the deposited data

Results flagged for a closer look

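For members and named genes, 38 groups of 5 animals were searched for a single animal lying far from its group, which chance gives in about 1 group in 20. No member had such a sample, and 5 groups of other genes did. Syngeneic animal 3 stood at 8.78 on the log2 scale for Rtp4, against 6.81 to 7.36 in the rest of its group. Syngeneic animal 4 was low for Ifih1, at 5.74 against 6.22 to 6.29. Allogeneic animal 3 was low for Zbp1, at 10.92 against 11.60 to 11.80. Allogeneic animal 4 was low for Stat2, at 7.45 against 8.13 to 8.30. Allogeneic animal 5 was low for Abce1, at 12.24 against 12.56 to 12.68.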

How the results depend on the processing

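Oas3 and Oasl1 kept their calls in 20 of 21 alternatives, with differences of 2.62 to 3.62 and of 1.29 to 1.86, and Oasl2 kept its call in 11 of 21. Leaving out 1 animal gave Oasl2 differences of 2.56 to 3.29. With animal number as a replicate block the differences were the same, 3.35 for Oas3, 1.60 for Oasl1 and 2.91 for Oasl2, but none passed (adjusted p = 0.0980, 0.122 and 0.159). Under this block limma called 0 members (4 at an unadjusted p under 0.05), 0 genes of the lists around them (18 unadjusted), 7 probe sets higher (3404 unadjusted) and 0 lower (3800 unadjusted). The labels state no pairing of animals by number. Deviations of same-numbered animals, 1 to 5, correlated at 0.269, 0.268, 0.003, -0.201 and -0.135 over 27934 probe sets. Syngeneic animals 1 and 2 correlated best with the allogeneic animal of their own number, and animals 3, 4 and 5 did not. These values cannot show whether same-numbered animals shared a batch or a source.

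Counts over the whole array moved more than the members did. Against 122 higher and 63 lower, there were 266 and 244 with 16 added before log2, 266 and 252 with low values set to the background limit, and 342 and 274 among probe sets above background on at least 5 arrays. There were 292 and 190 with a trended robust variance and 553 and 845 with array weights. With 1 probe set per gene 14 genes were lower, and with the mean of a gene's probe sets 60 were higher and 11 lower. Leaving out 1 animal gave 58 to 634 higher and 12 to 1401 lower, the largest without allogeneic animal 1. Without allogeneic animals 1, 3 and 4 the counts were 676 and 1359. The cause was not tested.

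In that last setting Oasl2 was 3.16 (adjusted p = 0.0645), Oas1a passed at 1.44 and Oas1b turned to -0.078. There 0 pairs of members passed, with too few arrays for the exact test to reach the threshold. Oas1a also passed with array weights, at 1.30. Pde12 turned to -0.002 with arrays centred on their median and to -0.454 with the mean of its probe sets, and ran from -0.007 to 0.117 when 1 animal was left out. Members near background in the syngeneic group, Oas3 above all, have fold differences limited by that background.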
